A study of Mus musculus with 19 samples.

Results

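The genes described here are 9 interferon-stimulated genes of the mouse: Ifit1, Ifit3, Isg15, Irf1, Irf7, Stat2, Bst2, Oasl2 and Rsad2. They are a list of named genes, found in the count tables by Ensembl identifier. They are 9 of 55401 genes counted, and all 9 are among the 18039 genes that passed the filter on low counts. Each was measured in 19 bulk libraries of polyadenylated RNA from C2C12, an established line of mouse myoblasts labelled wild type and grown in DMEM with fetal bovine serum. At 2, 6 and 12 h, one group received the vehicle DMSO and another 100 nM thapsigargin, and a recovery group received 100 nM thapsigargin for 6 h followed by 48 h without the drug. Groups held 3 libraries each, except DMSO and thapsigargin at 12 h with 2 each. Thapsigargin blocks the calcium pump of the endoplasmic reticulum and is widely used to raise stress in that compartment. Replicates are not stated to be separate cultures, so every p-value here reflects the spread among libraries alone, which may be technical.

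Interferons are secreted proteins that cells release when they sense foreign nucleic acid. Type I interferon binds the receptor chains Ifnar1 and Ifnar2, the kinases Jak1 and Tyk2 then phosphorylate Stat2, and Stat2 joins Irf9 in a complex that binds a promoter element called the ISRE. Another element, the GAS, is typical of genes that answer interferon gamma, such as Irf1. The products of the genes switched on in this way block steps of viral growth, and some of them (Stat2, Irf1, Irf7) feed back into the pathway.

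Sequences before the start of the genes are shown first, because the ISRE and the GAS define the regulation for which this gene family is known. RefSeq promoters (GRCm38.p6) were matched for 9 of 9 genes, and the 250 bases before each start were searched on both strands for the ISRE core (GAAA, any 2 bases, GAAA), the GAS (TTCNNNGAA) and TGATGNAA (the element bound by ATF4 with a CEBP partner). For 5 genes that between them hold both elements, the 200 bases from 240 to 41 bases before the start are printed 5′ to 3′ on the gene's strand, with matches in capitals. They are chr19:34640649-34640848 for Ifit1 (plus strand), chr19:34583289-34583488 for Ifit3 (plus), chr4:156200859-156201058 for Isg15 (minus), chr11:53769774-53769973 for Irf1 (plus) and chr8:71537513-71537712 for Bst2 (minus). Each window lies before the first exon of its gene. The other 4 genes span chr7:141262706-141266481 (Irf7, minus), chr10:128270559-128292849 (Stat2, plus), chr5:114896936-114912234 (Oasl2, plus) and chr12:26442746-26456452 (Rsad2, minus).
Ifit1: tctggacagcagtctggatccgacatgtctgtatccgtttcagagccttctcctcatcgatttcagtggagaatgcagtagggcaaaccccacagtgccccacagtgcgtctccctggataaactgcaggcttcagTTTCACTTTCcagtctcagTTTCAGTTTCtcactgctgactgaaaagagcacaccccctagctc
Ifit3: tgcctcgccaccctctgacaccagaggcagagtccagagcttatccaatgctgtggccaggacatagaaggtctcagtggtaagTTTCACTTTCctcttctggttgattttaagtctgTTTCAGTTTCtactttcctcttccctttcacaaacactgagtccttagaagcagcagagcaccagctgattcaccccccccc
Isg15: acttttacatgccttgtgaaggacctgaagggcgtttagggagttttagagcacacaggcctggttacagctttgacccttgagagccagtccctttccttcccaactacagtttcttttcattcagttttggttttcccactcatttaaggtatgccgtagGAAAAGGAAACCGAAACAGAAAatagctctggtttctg
Irf1: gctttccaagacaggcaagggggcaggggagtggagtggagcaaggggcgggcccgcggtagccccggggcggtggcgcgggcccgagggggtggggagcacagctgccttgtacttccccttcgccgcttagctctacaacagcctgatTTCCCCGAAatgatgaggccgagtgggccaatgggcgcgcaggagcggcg
Bst2: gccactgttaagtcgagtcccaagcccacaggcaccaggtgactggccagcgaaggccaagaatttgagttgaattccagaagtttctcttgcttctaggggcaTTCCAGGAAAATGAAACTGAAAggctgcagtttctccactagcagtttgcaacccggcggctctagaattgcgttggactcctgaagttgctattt

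The ISRE core was found before 6 of the 9 genes (Ifit1, Ifit3, Isg15, Stat2, Bst2 and Rsad2), against 2.977% of all 32851 promoters of that length. Ifit1 and Ifit3 hold 2 separate matches each, and in both genes the match farther from the start reads TTTCACTTTC and the nearer one TTTCAGTTTC on the gene's strand. The 3 matches before Isg15 overlap one another, as do the 2 before Bst2. GAS matches lie before Irf1 (TTCCCCGAA) and Bst2 (TTCCAGGAA, which overlaps the first ISRE match), against 7.02% of all promoters. Irf7 and Oasl2 held neither element in this window. TGATGNAA was found before 0 of the 9 genes, against 3.452% of all promoters. Such matches describe letters and not bound sites, and a window without a match says nothing about a factor.

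**Figure D1:**
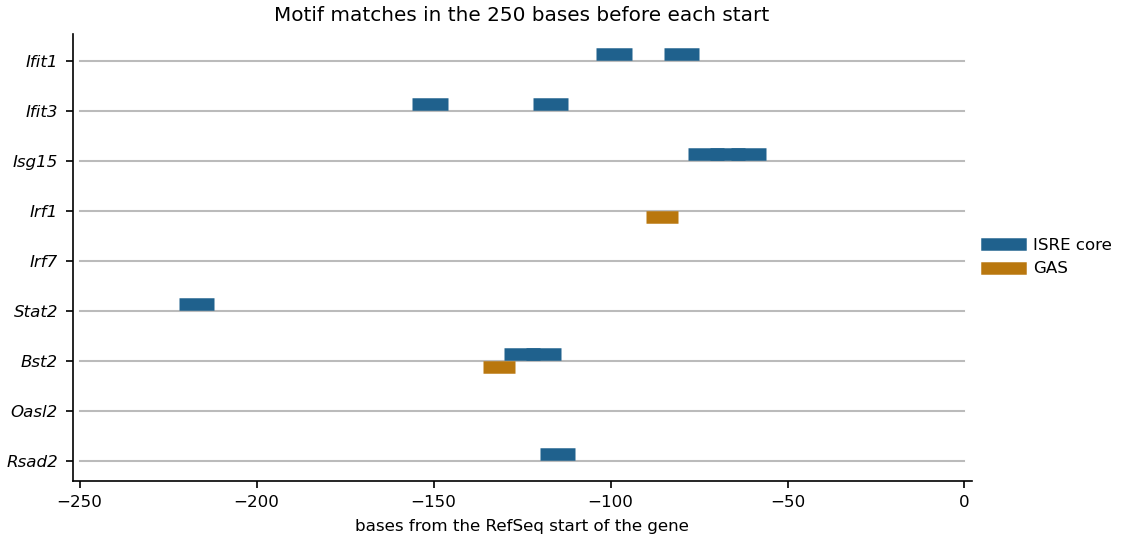
Positions of motif matches in the 250 bases before the RefSeq start of each gene (horizontal axis, bases from the start). Blue bars mark the ISRE core and ochre bars the GAS, and overlapping matches run together. Ifit1 and Ifit3 each show 2 separate blue bars, and only Irf1 and Bst2 show an ochre bar.

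Gene reads per library ranged from 17305962 to 40964140 and were lowest in the 12 h groups (17305962 to 21825491). Mitochondrially encoded RNA took 15.8% of gene reads in DMSO 2 h replicate 3 and 14.9% in recovery replicate 1, against 1.41% to 3.07% in the other 17 libraries. Comparisons that include these libraries are given with and without them where a call or a value changes. All libraries entered 1 fit, and leaving these out also raised the calls over all genes in comparisons without them. Those comparisons are the drug at 6 h and at 12 h, DMSO at 12 h against 6 h, and the response at 12 h minus 6 h. For the genes described here and the pathway lists, they were not examined in that setting. A second difference between libraries followed transcript length. The median log2 level of long genes (at least 6754 exon bases) minus that of short ones (at most 2721), set against the mean over libraries, was 0.56 to 0.88 at 2 h and 0.39 to 0.55 at 12 h. It was -1.08 to -0.52 in DMSO at 6 h, -1.01 to 0.04 in thapsigargin at 6 h and -1.22 to -0.09 in recovery. The genes described here have from 756 (Isg15) and 903 (Bst2) to 6374 (Oasl2) exon bases, so an alternative fit removed this trend from each library. All 6 defining myoblast markers were detected in every group (summed 1031 to 9344 CPM, counts-per-million on TMM-scaled library sizes). Of 8 macrophage markers Adgre1 and Itgam were at 0 counts everywhere, and the sum of 15.1 to 37.8 CPM was mostly Cd14 and Cd68. Lymphocyte markers summed to at most 0.453 CPM with Cd3e and Nkg7 at 0, and Siglech, which defines plasmacytoid dendritic cells, had 1 count in all, while its list of 6 summed to 66.3 to 296 CPM, nearly all from Tcf4. The epithelial list summed to 16.0 to 28.8 CPM in thapsigargin and 1.12 to 3.36 CPM in DMSO at 6 h, with Epcam at 0 everywhere. The endothelial list summed to 2.64 to 4.92 CPM against 0.514 to 0.610 CPM in the same groups. Among markers tested, 3 of 4 epithelial, 3 of 3 endothelial, 2 of 5 macrophage and 1 of 2 plasmacytoid ones were higher with thapsigargin at 6 h, and 3, 2, 2 and 1 of these lists were lower in recovery than at 6 h of drug. At 12 h, 1 endothelial and 1 plasmacytoid marker were higher. At 2 h, 1 of the 4 epithelial markers tested was higher. That list then summed to 5.57 to 7.93 CPM in thapsigargin and 1.59 to 3.12 CPM in DMSO. Of all genes, 4.52% were called at 2 h, 13.0% were higher at 6 h of drug, 13.9% were lower in recovery and 13.1% were called at 12 h. Of the 6 myoblast markers, 1 was higher and 1 lower with thapsigargin at 6 h, and the same numbers at 12 h. The part of these markers in the results at these times was not tested. In bulk RNA, fewer cells expressing a gene and less RNA per cell cannot be told apart.

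Levels of the 9 genes differed widely in range across the 7 groups. Between the lowest and highest group mean, Ifit1 spanned 58.2-fold, Isg15 13.0-fold, Ifit3 12.6-fold, Oasl2 9.90-fold, Rsad2 6.49-fold and Bst2 4.81-fold. The transcription factors varied less, with 2.86-fold for Stat2, 2.65-fold for Irf7 and 2.64-fold for Irf1. Thapsigargin at 12 h was the highest of the 7 group means for 8 of the 9 genes, with Irf1 the exception. Ifit1 was lowest in DMSO at 6 h and then, in rising order of mean, in DMSO 2 h, thapsigargin 2 h, recovery, thapsigargin 6 h, DMSO 12 h and thapsigargin 12 h. Neighbouring groups overlapped from DMSO 2 h up to thapsigargin 6 h, while DMSO 6 h and both 12 h groups stood clear of their neighbours. Isg15 followed the order DMSO 2 h, thapsigargin 2 h, DMSO 6 h, recovery, DMSO 12 h, thapsigargin 6 h, thapsigargin 12 h, and overlapped its neighbours only among the first 3. Stat2 ran from thapsigargin 6 h through DMSO 6 h, thapsigargin 2 h, DMSO 2 h and recovery to DMSO 12 h and thapsigargin 12 h, and the last 3 of these overlapped in turn. Irf7 groups overlapped at every step of their order. Per kilobase of exon, Bst2 had the highest group mean of the 9 genes in 6 of the 7 groups (5.16 CPM per kb in DMSO 2 h to 24.8 CPM per kb in thapsigargin 12 h), and Rsad2 the lowest in the same 6 (0.0746 to 0.484 CPM per kb). In thapsigargin at 2 h, Irf1 (6.37 CPM per kb) was above Bst2 (5.33), and Ifit3 (0.212) and Oasl2 (0.248) were below Rsad2 (0.259).

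**Figure D2:**
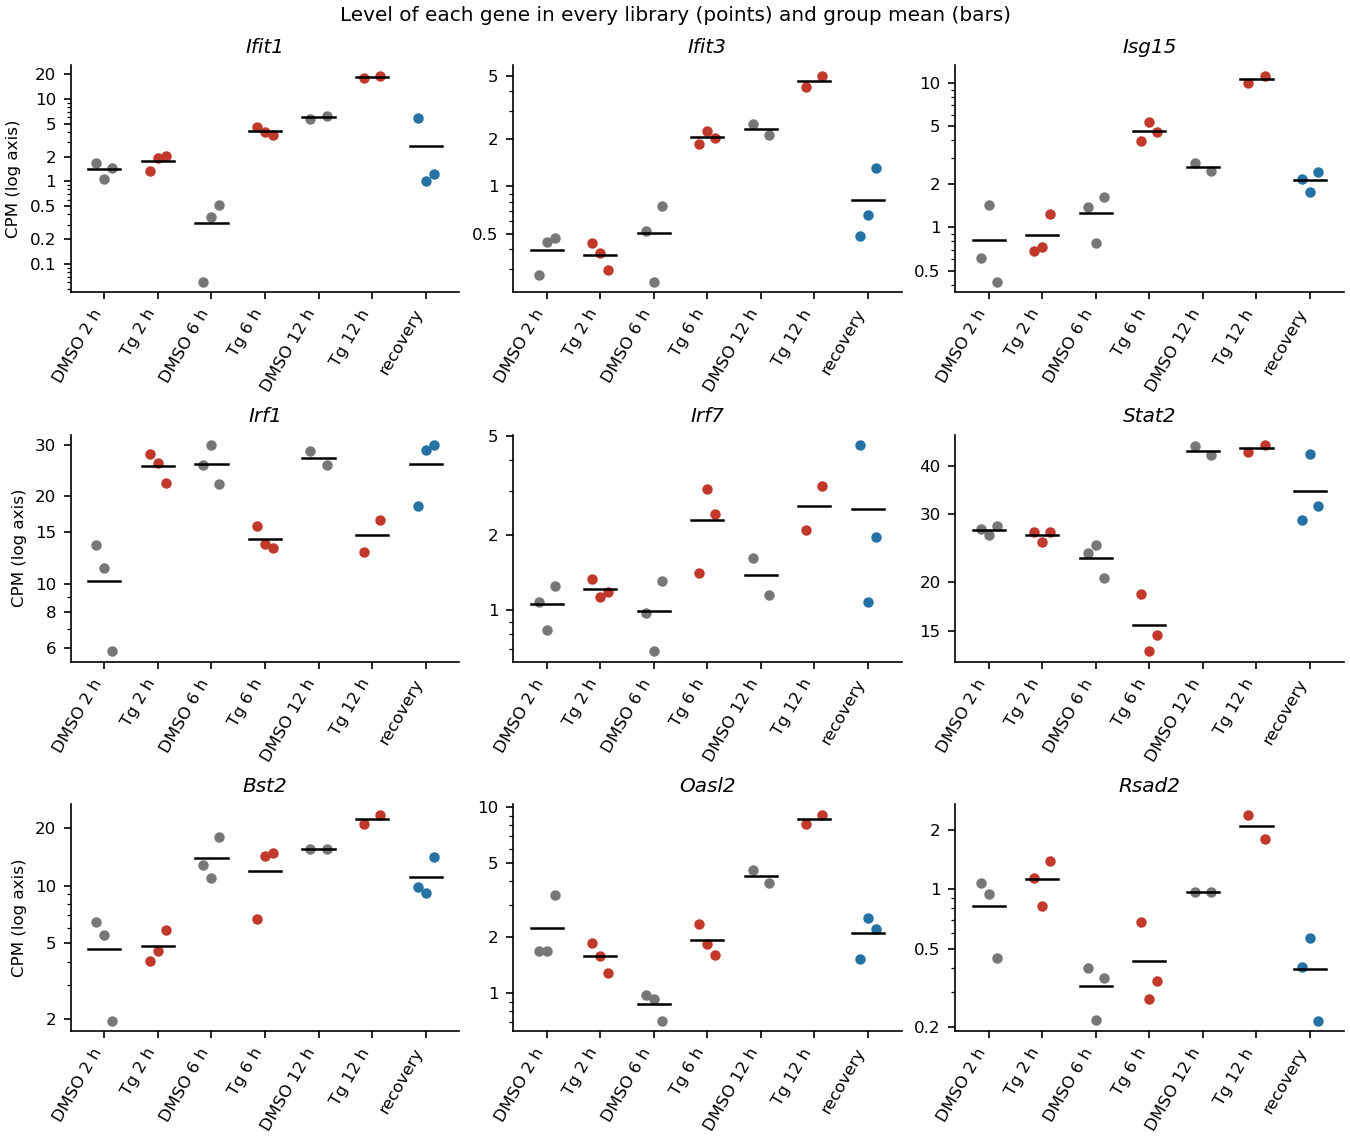
Level of each of the 9 genes in CPM (vertical, log axis, with its own range per panel) in every library, by group (Tg, thapsigargin). Points are libraries (grey DMSO, red thapsigargin, blue recovery) and bars are group means. Ifit1 drops to 0.061 CPM in a DMSO 6 h library and reaches 19.1 CPM in thapsigargin at 12 h, and in recovery 1 library at 5.80 CPM lies above the other two.

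At 2 h, the only one of the 9 genes that passed the test between thapsigargin and DMSO was Irf1, the transcription factor that answers interferon gamma and other inflammatory signals. Its level was 13.6, 11.3 and 5.86 CPM in the DMSO libraries and 27.9, 25.9 and 22.2 CPM in the thapsigargin libraries. All drug libraries lay above all vehicle libraries, and the vehicle library with high mitochondrial share was the lowest. Irf1 was 2.47-fold higher, with a log2 difference of 1.31 ± 0.27 (SE of the fit; n = 3 and 3; edgeR quasi-likelihood test, Benjamini-Hochberg adjusted p = 0.0107). Leaving out both high-mitochondrial libraries gave 1.09 ± 0.17, and its adjusted p rose to 0.054 without thapsigargin replicate 1. This 1 of 9 compares with 4.52% of all genes called at 2 h. Scaled to total gene reads, 0 of the 9 passed, and over all genes 470 were higher and 48 lower, against 543 and 273 with TMM. The other 8 genes had log2 differences of -0.51 (Oasl2) to 0.44 (Rsad2), each with overlapping groups and adjusted p of at least 0.443.

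At 6 h, 4 genes were higher with thapsigargin (Ifit1, Ifit3, Isg15, Oasl2) and 2 were lower (Irf1, Stat2). Of all genes, 21.8% were called at this time, 13.0% higher and 8.79% lower. Without the libraries of high mitochondrial share 6588 of 17810 genes were called, against 3926 of 18039 with them. Whether the calls of the genes described here change in that setting was not tested. With no filter on low counts, the calls of Ifit1, Ifit3 and Isg15 were left, and Oasl2 (adjusted p = 0.077), Irf1 (0.054) and Stat2 (0.196) did not pass. Over all 34137 genes then tested, 3406 were called. Ifit1, whose protein binds viral RNA that lacks the methylated cap of host mRNA, stood at 0.0610, 0.374 and 0.514 CPM in DMSO and at 4.51, 3.92 and 3.68 CPM with thapsigargin. The vehicle values rest on 2, 12 and 13 reads, and the highest of them was far below the lowest drug value. The means differed 12.8-fold (log2 3.69 ± 0.64, adjusted p = 0.000619). Ifit3, which forms a complex with Ifit1 proteins, had 0.519, 0.249 and 0.751 CPM in DMSO and 1.87, 2.26 and 2.01 CPM with thapsigargin, again without overlap. That is 4.04-fold (log2 2.02 ± 0.41, adjusted p = 0.0021), though 51.2% of the 50-base stretches of Ifit3 also occur in its near-identical neighbour Ifit3b, so the split of reads between the pair is uncertain.

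Isg15, a ubiquitin-like protein that is joined to other proteins, stood at 1.37, 0.779 and 1.62 CPM in DMSO and 3.98, 5.38 and 4.59 CPM with thapsigargin at 6 h. The groups did not overlap, and the means differed 3.70-fold (log2 1.89 ± 0.39, adjusted p = 0.00248). Oasl2, of the oligoadenylate synthetase family that senses double-stranded RNA, had 0.977, 0.934 and 0.712 CPM in DMSO and 2.34, 1.84 and 1.62 CPM with thapsigargin. It was 2.21-fold higher (log2 1.14 ± 0.32, adjusted p = 0.0158), but not past the threshold without DMSO replicate 3 (adjusted p = 0.063) or without thapsigargin replicate 1 (0.062). Irf7, the factor that drives production of interferon alpha, was 0.977, 0.685 and 1.30 CPM in DMSO and 1.41, 3.06 and 2.44 CPM with thapsigargin. These groups did not overlap either, yet the difference missed the threshold (log2 1.22 ± 0.46, adjusted p = 0.069), which it passed without thapsigargin replicate 1 (0.043).

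The 2 genes that fell at 6 h encode transcription factors. Irf1 was 25.5, 29.8 and 22.0 CPM in DMSO and 15.8, 13.7 and 13.3 CPM with thapsigargin. Every drug library was below every vehicle library, and Irf1 fell by 0.86 on the log2 scale (SE 0.27, adjusted p = 0.0304). Stat2, the signal carrier specific to type I and III interferon, was 23.7, 24.9 and 20.5 CPM in DMSO and 18.7, 13.3 and 14.6 CPM with thapsigargin. It fell by 0.57 (SE 0.18, adjusted p = 0.03), also without overlap. Neither fall passed the threshold without DMSO replicate 1 or 2 or thapsigargin replicate 2 or 3, where adjusted p was 0.070, 0.092, 0.082 and 0.098 for Irf1 and 0.088, 0.080, 0.12 and 0.10 for Stat2. With the replicate number as a block, Stat2 had an adjusted p of 0.051. Bst2, the tetherin that holds budding virus at the cell surface, was 10.9 to 18.1 CPM in DMSO and 6.66 to 14.8 CPM with the drug, and Rsad2 (viperin, an enzyme that blocks viral RNA synthesis) was 0.218 to 0.397 and 0.278 to 0.681 CPM. Neither passed the test (log2 -0.23 ± 0.38 and 0.43 ± 0.48). Scaled to total gene reads instead of TMM factors, Irf7 passed and both falls did not, so that 5 of the 9 genes were higher and 0 lower. Of all genes, 2069 were then higher and 832 lower at 6 h, against 2341 and 1585 with TMM.

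At 12 h the levels with thapsigargin were the highest of the series for most of the genes, but the vehicle was high as well. Isg15 alone passed the test, with 2.80 and 2.44 CPM in DMSO and 9.94 and 11.3 CPM with thapsigargin. It was 4.05-fold higher (log2 2.02 ± 0.48, adjusted p = 0.0092), against 13.1% of all genes called. Its adjusted p was 0.078 without DMSO replicate 1, 0.11 without DMSO replicate 2 and 0.062 without thapsigargin replicate 2. Ifit1 stood at 5.76 and 6.13 CPM in DMSO and 17.7 and 19.1 CPM with thapsigargin, a log2 difference of 1.63 ± 0.67 that did not pass (adjusted p = 0.135). Ifit3 (2.47 and 2.12 against 4.28 and 5.04 CPM), Oasl2 (4.58 and 3.92 against 8.15 and 9.15 CPM) and Rsad2 (0.973 and 0.969 against 2.40 and 1.80 CPM) were at log2 differences of 1.02, 1.02 and 1.11. The Stat2 libraries of the 2 groups overlapped (44.8 and 42.6 against 43.4 and 45.2 CPM). Lack of overlap in the other genes carries little weight with 2 libraries per group, and its share over all genes was not computed. Irf1 was again lower with the drug, at 28.6 and 25.5 CPM in DMSO and 12.8 and 16.5 CPM with thapsigargin (log2 -0.89 ± 0.33, adjusted p = 0.0957). Fitted on the 4 libraries alone, 8 of the 9 genes passed, but so did 62.2% of all genes. DESeq2 called 3 (Isg15, Irf1 and Oasl2), against 16.4% of all genes. Without the libraries of high mitochondrial share, 4539 of 17810 genes were called at 12 h, against 2356 of 18039 with them. Whether more of the genes described here pass in that setting was not tested.

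The change of the response between 2 and 6 h was itself tested, as the difference of the 2 log2 differences. It passed for Ifit1 (3.36 ± 0.84, adjusted p = 0.0329), Irf1 (-2.16 ± 0.38, adjusted p = 0.00359) and Oasl2 (1.65 ± 0.44, adjusted p = 0.0457), against 3.99% of all genes. Irf1 was on opposite sides of the vehicle at the 2 times, above its vehicle at 2 h and below it at 6 h, with a drug level of 25.3 ± 2.88 CPM at 2 h and 14.2 ± 1.32 CPM at 6 h while the vehicle went from 10.2 ± 3.96 to 25.8 ± 3.93 CPM. For Ifit1 the drug level went from 1.76 ± 0.372 to 4.04 ± 0.426 CPM and the vehicle from 1.40 ± 0.290 to 0.316 ± 0.232 CPM. For Oasl2 the drug level went from 1.58 ± 0.285 to 1.93 ± 0.373 CPM, with overlap, and the vehicle from 2.25 ± 0.975 to 0.874 ± 0.142 CPM. The Irf1 call held without each of the 12 libraries in turn (adjusted p = 0.0025 to 0.014), but not with scaling to total reads (0.062). The calls of Ifit1 and Oasl2 were each lost without 10 of the 12 libraries, with adjusted p of 0.054 to 0.094 for Ifit1 and 0.061 to 0.12 for Oasl2. Only DMSO 2 h replicate 2 and DMSO 6 h replicate 3 could be left out for Ifit1, and DMSO 2 h replicates 1 and 2 for Oasl2. With the replicate block, 1 of the 9 genes passed (Irf1), against 3 without it, and 504 of all 18039 genes, against 719. Leaving out DMSO 2 h replicate 3 and recovery replicate 1, those of high mitochondrial share, 5 passed: Irf1 (-1.97), Ifit1 (3.26), Oasl2 (1.14), Isg15 (2.00, adjusted p = 0.021) and Ifit3 (1.89, adjusted p = 0.049). Calls over all genes also rose in that setting, from 719 of 18039 to 1975 of 17810. Between 6 and 12 h, 0 of the 9 responses differed, against 0.571% of all genes. At an unadjusted p under 0.05 there was 1, against 1435 of all 18039 genes. DESeq2 called 0 of the 9, against 414 of 16780 genes. Without the libraries of high mitochondrial share 732 of 17810 genes were called, against 103 of 18039 with them, and the 9 genes were not examined in that setting. The response of Ifit1 differed by -2.06 ± 0.90 and that of Isg15 by 0.13 ± 0.61.

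After 48 h without the drug, Stat2 and Irf1 were higher and Ifit3 and Isg15 lower than at the end of 6 h of thapsigargin. Of all genes, 25.5% were called in this comparison, 11.6% higher and 13.9% lower. Stat2 was 28.9, 42.9 and 31.4 CPM in recovery, all above the 18.7, 13.3 and 14.6 CPM of thapsigargin at 6 h (log2 1.15 ± 0.18, adjusted p = 0.00021). Irf1 stood at 18.4, 28.8 and 29.9 CPM, above the 15.8, 13.7 and 13.3 CPM of the drug group (adjusted p = 0.0273). Ifit3 was 0.483, 0.656 and 1.32 CPM in recovery and fell by 1.27 (SE 0.40, adjusted p = 0.0268). Isg15 was 2.17, 1.76 and 2.42 CPM and fell by 1.14 (SE 0.38, adjusted p = 0.0398). Both lay wholly below the drug group. The calls of Ifit3, Isg15 and Irf1 were lost without thapsigargin replicate 2 (adjusted p = 0.068, 0.11 and 0.075), thapsigargin replicate 3 (0.059, 0.082 and 0.089) or recovery replicate 2 (0.080, 0.099 and 0.065). Leaving out recovery replicate 3 also ended those of Isg15 and Irf1 (0.061 and 0.087), and leaving out replicate 1 that of Ifit3 (0.0503). Fitted on the 6 libraries alone, 0 of the 9 genes passed in edgeR, with Stat2 nearest (adjusted p = 0.052). Over all genes, 1403 of 15273 passed in that fit. DESeq2 on all libraries called 4 of the 9, against 5459 of 19981 genes. Scaling to total reads ended the call of Irf1 and changed the counts over all genes to 1101 higher and 2241 lower, from 2090 and 2511.

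Recovery replicate 1, the library of high mitochondrial share, decided the value of Ifit1. Ifit1 stood at 5.80 CPM there and at 1.01 and 1.24 CPM in the other 2 recovery libraries, against 3.68 to 4.51 CPM at 6 h of drug. The log2 difference was -0.67 ± 0.55 (adjusted p = 0.409) with it and -1.85 (adjusted p = 0.0022) without it. Irf7 was also highest in that library (4.59 CPM, against 1.08 and 1.96 CPM), and its difference from thapsigargin at 6 h went from 0.11 to -0.60 without it, called in neither case. Without both libraries of high mitochondrial share, 5 of the 9 genes passed, Ifit1 among them (-1.85, adjusted p = 0.0024), against 6249 of all 17810 genes.

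Set against DMSO at 6 h, 0 of the 9 genes passed in recovery, and 0.327% of all genes did. At an unadjusted p under 0.05 there were 4 of the 9, against 1766 of all 18039 genes. The recovery libraries had no vehicle kept for as long, so the effects of drug removal and of culture time cannot be told apart. This comparison shares the DMSO libraries with that of the drug at 6 h. Ifit1 was nearest to the threshold, with all 3 recovery libraries above the 0.0610 to 0.514 CPM of DMSO (log2 3.03 ± 0.64, adjusted p = 0.0635). Oasl2 was 1.53, 2.53 and 2.23 CPM in recovery, above the 0.712 to 0.977 CPM of DMSO (log2 1.27 ± 0.32, adjusted p = 0.13), and Stat2 differed by 0.58 ± 0.18 (adjusted p = 0.246). DESeq2 called these 3 genes, against 2.57% of all genes. Ifit1 passed in edgeR without recovery replicate 2 (adjusted p = 0.030) or 3 (0.045), and Oasl2 without replicate 1. Without both libraries of high mitochondrial share, Oasl2 (1.41 ± 0.23) and Stat2 (0.66 ± 0.16) passed, and Ifit1 had a log2 difference of 1.83 ± 0.45 (adjusted p = 0.055). Calls over all genes rose as well in that setting, from 59 of 18039 to 377 of 17810. Irf1 was back at the vehicle level, with 25.7 ± 6.32 CPM in recovery and 25.8 ± 3.93 CPM in DMSO.

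**Figure D3:**
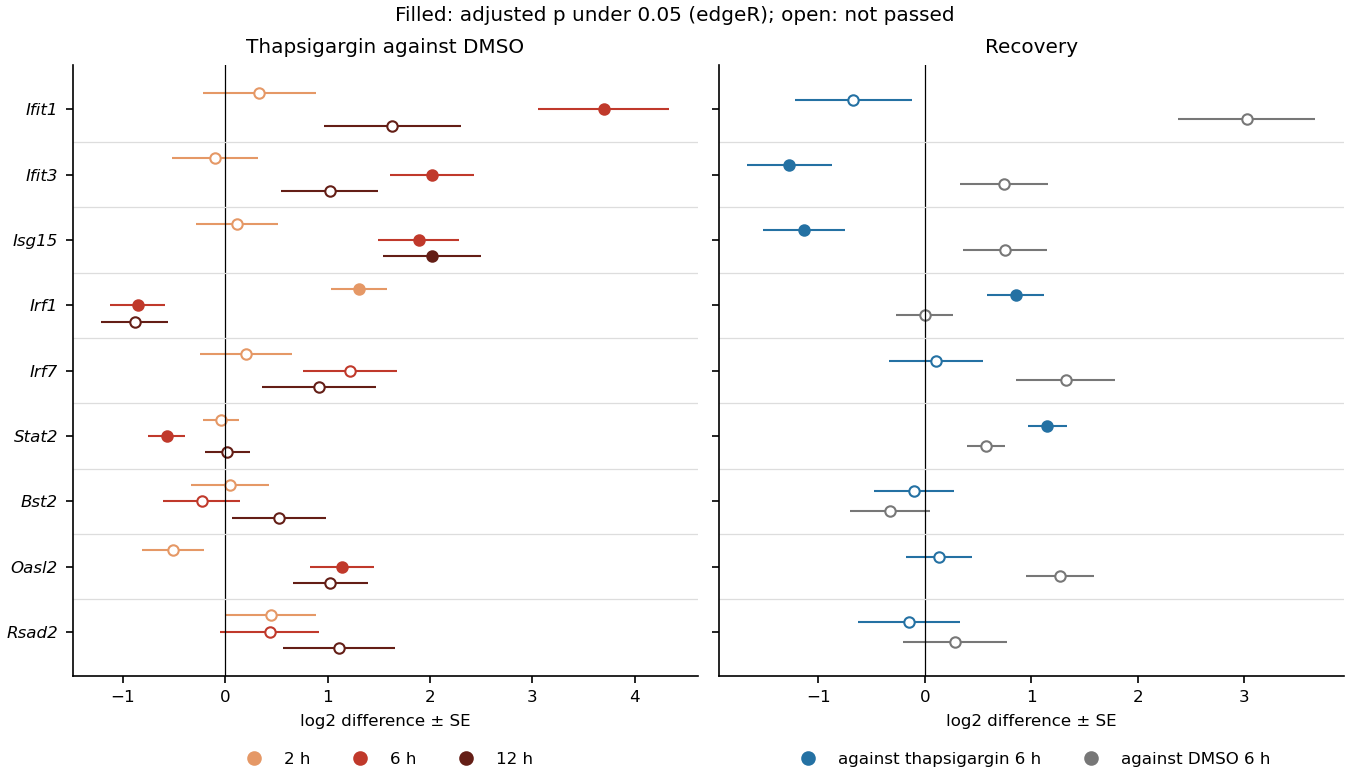
Log2 differences of the 9 genes with the standard error of the fit (horizontal), for thapsigargin against DMSO at 2, 6 and 12 h (left) and for recovery against thapsigargin or DMSO at 6 h (right). Filled points passed an adjusted p of 0.05. Irf1 lies at 1.31 at 2 h and at -0.86 and -0.89 at 6 and 12 h, and the largest value is the 3.69 of Ifit1 at 6 h.

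The vehicle groups were not a constant baseline. From 2 to 6 h in DMSO, Ifit1 (1.66, 1.08 and 1.45 CPM at 2 h) fell by 2.16 on the log2 scale (SE 0.63, adjusted p = 0.0111), Oasl2 (1.68, 1.69 and 3.38 CPM) by 1.36 (SE 0.32, adjusted p = 0.00311) and Rsad2 (1.08, 0.944 and 0.447 CPM) by 1.34 (SE 0.47, adjusted p = 0.0281). None of these groups overlapped between the times, but the share of all genes without overlap was not computed. Irf1 rose by 1.33 ± 0.27 (adjusted p = 0.00142) and Bst2, at 6.49, 5.53 and 1.95 CPM at 2 h and 12.9, 10.9 and 18.1 CPM at 6 h, by 1.58 ± 0.39 (adjusted p = 0.00404). These 5 of 9 compare with 49.6% of all genes called between the 2 vehicle groups. With the length trend removed, 3 of the 9 passed, and the 903-base transcript of Bst2 had a difference of 0.57 (adjusted p = 0.15). Of all 18039 genes, 7531 were called in that setting. Rsad2 was not called with that offset (adjusted p = 0.057), nor without DMSO 2 h replicate 1 (0.097) or 2 (0.073) or DMSO 6 h replicate 2 (0.094) or 3 (0.061). Isg15 passed only without DMSO 2 h replicate 2 (1.28, adjusted p = 0.016, against 0.62 with it). Without the 2 libraries of high mitochondrial share the same number, 5, passed, with Ifit1 at -2.14 and Irf1 at 1.06. Oasl2 then differed by -0.93 and Bst2 by 1.23, and 10360 of all 17810 genes were called. Of the 6 myoblast markers, 3 were lower at 6 h than at 2 h and 0 higher in the fit of all libraries.

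From 6 to 12 h in DMSO, 5 of the 9 genes rose and 0 fell, against 35.4% of all genes called and 18.7% called higher. Ifit1 went from 0.316 ± 0.232 to 5.95 ± 0.267 CPM (SD, n = 3 and 2), 18.8-fold (log2 4.25 ± 0.68, adjusted p = 0.000772). Oasl2 rose by 2.27 ± 0.34 (adjusted p = 0.000488), from 0.874 ± 0.142 to 4.25 ± 0.467 CPM. Ifit3 rose by 2.19 ± 0.44, Rsad2 by 1.58 ± 0.52 and Stat2 by 0.92 ± 0.20. In each of these the 2 later libraries lay above all 3 earlier ones, but the share of all genes for which this holds was not computed. The 6 defining myoblast markers moved as well: their sum was 3151 to 5562 CPM at 6 h and 1159 to 1190 CPM at 12 h, with 4 lower and 1 higher, and their part in these results was not tested. Rsad2 lost its call without DMSO 6 h replicate 2 or 3 or DMSO 12 h replicate 1 or 2 (adjusted p = 0.079, 0.069, 0.13 and 0.12) and with the replicate block (0.055), and Stat2 without DMSO 12 h replicate 1 (0.051). With the length trend removed, 7 of the 9 passed, with Isg15 (2.00 in place of 1.06) and Bst2 (1.02 in place of 0.16) added. Of all 18039 genes, 2147 were higher and 2763 lower in that setting. Scaled to total reads, 2865 of all genes were higher and 1698 lower, against 3368 and 3025. Without the libraries of high mitochondrial share 10088 of 17810 genes were called, against 6393 of 18039 with them. The genes described here were not examined in that setting.

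Between 2 and 12 h, where the length trends of the libraries were closer (0.56 to 0.88 and 0.39 to 0.55), 6 of the 9 genes were higher at the later time (Ifit1, Ifit3, Isg15, Irf1, Stat2, Bst2) and 0 lower. Of all genes, 7.17% were called in that comparison and 3.03% called higher. The 9 genes were chosen with earlier results of these data known, so these shares are not a chance level for them. Ifit3 showed the largest rise, from 0.276, 0.444 and 0.475 CPM to 2.47 and 2.12 CPM (5.77-fold, log2 2.52 ± 0.45, adjusted p = 0.0019), and the removal of the length trend left it at 2.42. Bst2 rose by 1.74 ± 0.42, Isg15 by 1.68 ± 0.43, Irf1 by 1.40 ± 0.29, Ifit1 by 2.09 ± 0.61 and Stat2 by 0.68 ± 0.20. All were without overlap between the groups, but the share of all genes without overlap was not computed. Of the myoblast markers 2 of 6 were lower at 12 h (summed 2505 to 3136 CPM at 2 h). Ifit3 alone kept its call without each of the 5 libraries in turn. Without DMSO 12 h replicate 1 or 2, 1 of the 9 genes passed, while 3 or 4 did without 1 of the 2 h libraries. The replicate block ended the calls of Ifit1 (adjusted p = 0.095) and Stat2 (0.112), and the fit on the 5 libraries alone left 3 (Ifit1, Ifit3 and Stat2). Over all genes, the block called 937 of 18039 and the fit on the 5 libraries 1529 of 15127. Adjusted p without 1 library reached 0.22 for Ifit1, 0.20 for Isg15, 0.095 for Irf1, 0.33 for Stat2 and 0.12 for Bst2. Oasl2 (0.92 ± 0.33) passed without DMSO 2 h replicate 3 (adjusted p = 0.014). Leaving out both libraries of high mitochondrial share, 7 of the 9 passed, against 2251 of all 17810 genes. Oasl2 was added (1.32 ± 0.24, adjusted p = 0.0022), and Bst2 and Isg15 stood at 1.36, Irf1 at 1.11 and Ifit1 at 2.10. Scaled to total reads, 479 genes were higher and 371 lower, against 547 and 746 with TMM, and 4 of the 9 genes passed. Whatever else differed between the time points cannot be told apart from time.

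**Figure D4:**
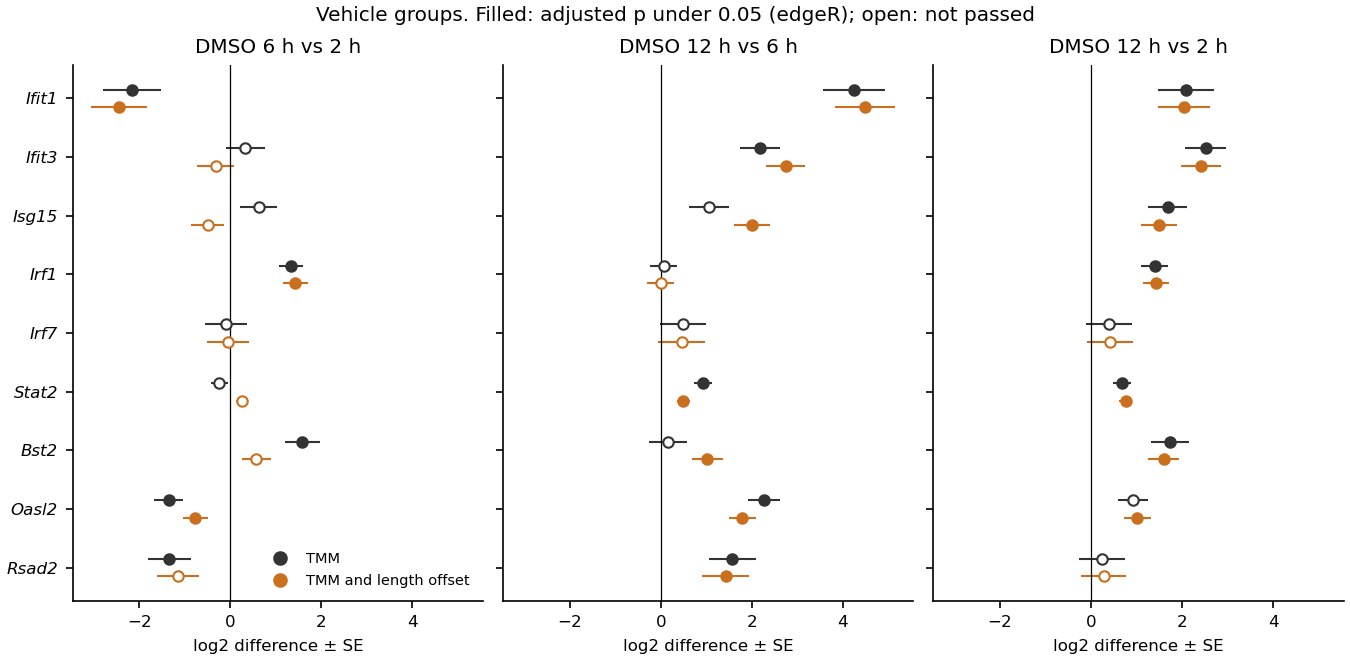
Log2 differences of the 9 genes between DMSO groups, with the standard error of the fit (horizontal), with TMM scaling (black) and with the trend over transcript length removed as well (orange). Filled points passed an adjusted p of 0.05. Bst2 and Isg15 shift most between the 2 settings in the comparisons with 6 h, and little between 12 and 2 h.

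Other genes of the pathway were followed through lists of ligands, receptors, sensors, factors, effectors and regulators. The 10 interferon genes listed had 29 reads over all 19 libraries, 23 of them from Ifne, and none could be tested. Ifnb1, the usual first interferon of fibroblast-like cells, had 1 read in all, in thapsigargin at 12 h. The receptor chains were present throughout: Ifnar1 was 73.0 ± 3.54 CPM in DMSO and 85.8 ± 4.03 CPM in thapsigargin at 6 h, and Ifnar2 13.7 ± 4.65 and 16.2 ± 1.88 CPM. Neither passed the test with the drug at 2, 6 or 12 h. Irf9, which binds DNA together with Stat2, did not pass either, with log2 differences of -0.19 ± 0.21 at 6 h and 0.58 ± 0.26 at 12 h. Irf3, which is activated by nucleic acid sensors, was at -0.36 ± 0.45 at 6 h. Of the 8 STAT and IRF factors tested beside the 9 genes, 2 rose at 6 h and none fell, against 13.0% of all genes higher. These were Irf8, which had 43 reads against 0 in DMSO and was at least 4.02-fold higher (floor of 3 reads per library), and Irf5 (1.32 ± 0.45). Of the 9 receptors and kinases tested, 1 rose at 2 h and none passed at 6 or 12 h. At an unadjusted p under 0.05 there were 1 and 2 at 6 and 12 h, against 5885 and 4383 of all 18039 genes. DESeq2 called 1 each time, against 4604 of 20621 and 2961 of 18061 genes. The receptor gene called at 2 h was Ifnlr1, with 18 reads against 0 (at least 1.66-fold higher).

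Among 52 other interferon effectors tested, 16 were higher and 8 lower with thapsigargin at 6 h, with a median log2 difference of 0.60 against 0.01 for all genes tested (0.45 with genes at 0 reads in a group set to their bound). Of all genes, 13.0% were higher and 8.79% lower. Among those that rose were the chemokine gene Cxcl10, with 414 reads against 5 (3.91 ± 0.811 against 0.0515 ± 0.0474 CPM, log2 6.06 ± 0.65), and Oas1b, an oligoadenylate synthetase with 30 reads against 0 (at least 2.86-fold higher). At 2 h the same list had 1 higher and 4 lower, with Cxcl10 at 2.10 ± 0.49 and Lgals3bp at -1.20 ± 0.24 (median -0.07, against -0.04 for all genes, of which 4.52% were called). Without the 2 libraries of high mitochondrial share it had 2 higher and 4 lower at 2 h (1226 and 633 of all 17810 genes), with a median of 0.13 and Lgals3bp at -0.73 ± 0.14. At 12 h it had 9 higher and 4 lower, against 13.1% of all genes called, with Oas1g at least 3.79-fold higher (20 reads against 0) and the membrane protein gene Ifitm1 lower by 3.81 on the log2 scale (0.361 ± 0.078 against 5.12 ± 0.266 CPM; median 0.07). Several of these genes have near-identical copies (the Oas1, Ifi200, Gbp and Ifitm families), between which the assignment of reads is uncertain. In recovery against thapsigargin at 6 h, 14 effectors were higher and 9 lower, against 11.6% and 13.9% of all genes, with Cxcl10 at -4.17 ± 0.55 and Ifi44 at 3 reads against 42 (a ratio of 0.0803, counting interval 0.0159 to 0.251). Against DMSO at 6 h, 0 of the 52 passed in recovery, against 0.327% of all genes. At an unadjusted p under 0.05 there were 13, against 1766 of all 18039 genes. DESeq2 called 0 of them, against 399 of 15500 genes. Without the libraries of high mitochondrial share 3 of the 52 were higher, against 224 of all 17810 genes in that setting.

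Single sensors and brakes of the pathway were called in both directions, in shares to be read against the 21.8% of all genes called at 6 h. Of 17 genes for nucleic acid sensing, 2 were higher and 3 lower with thapsigargin at 6 h. The largest changes among those called were falls of Tmem173, which encodes STING, from 17.3 ± 2.38 to 5.11 ± 0.766 CPM (log2 -1.76 ± 0.23), and of the RNA sensor Tlr3 (-1.50 ± 0.45). Tmem173 was also lower at 2 h (-0.82 ± 0.22, but -0.49 ± 0.15 with an adjusted p of 0.061 without the libraries of high mitochondrial share) and 12 h (-1.09 ± 0.28), and higher in recovery than at 6 h of drug (2.11 ± 0.23). The adaptor gene Ticam1 was higher at 2 h (46.8 ± 1.85 against 23.4 ± 11.2 CPM, log2 1.53 ± 0.13 without the libraries of high mitochondrial share) and at 12 h (log2 1.82 ± 0.30). In the fit with the length trend removed, Ticam1 was among the genes called higher at 6 h (1.05 ± 0.23). In that fit 2 of the 17 sensing genes were higher, the same number as without the offset. Of 9 negative regulators tested, 1 was higher and 3 lower at 6 h, among them Socs3, an inhibitor of JAK kinases (-1.23 ± 0.34, and -2.18 ± 0.43 at 12 h), and the phosphatase gene Ptpn6 (-1.64 ± 0.35). Of 12 antigen presentation genes, Nlrc5, the activator of MHC class I genes, rose (1.16 ± 0.17 at 6 h and 1.44 ± 0.20 at 12 h) and the peptide loading gene Tapbp fell (-1.75 ± 0.30 and -1.61 ± 0.36).

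**Figure D5:**
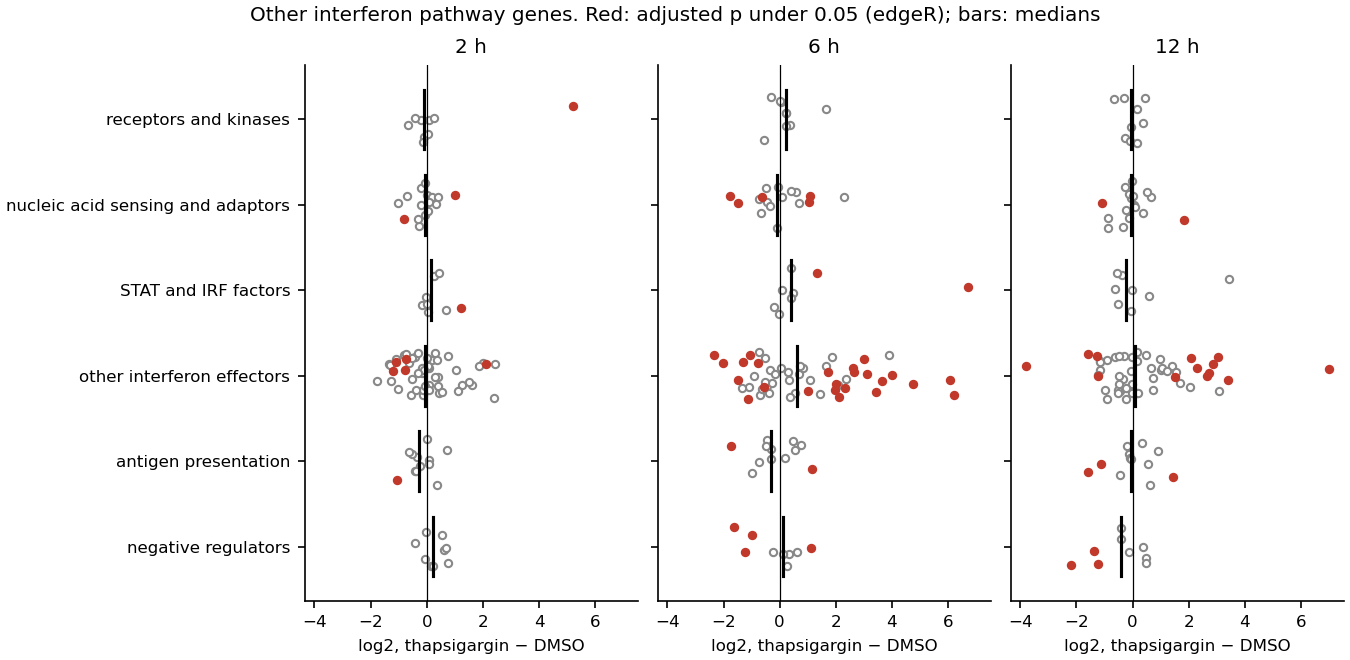
Log2 difference between thapsigargin and DMSO at 2, 6 and 12 h (horizontal) for each tested gene of 6 pathway lists without the 9 genes themselves. Red points passed an adjusted p of 0.05 and black bars are list medians. The effector list has 16 red points above 0 and 8 below at 6 h, and its median is 0.60.

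The effector list also changed with time in the vehicle, along with the length trend and the myoblast markers given above, whose part was not tested beyond the length offset. From 6 to 12 h in DMSO, 26 of the 52 tested were higher and 4 lower, against 18.7% of all genes higher and 35.4% called (median 1.62, or 1.495 with genes at 0 reads set to their bound, against 0.00 for all genes). Trim30a led with 129 reads against 2 (a ratio of 125, counting interval 34.0 to 1047), and Iigp1, a GTPase induced by interferon, had 15 against 0 (at least 3.25-fold higher). With the length trend removed, 25 were higher and 2 lower, against 2147 and 2763 of all 18039 genes. From 2 to 12 h, 10 were higher and 0 lower (median 0.94, against 0.05, with 7.17% of all genes called and 3.03% higher). Without the libraries of high mitochondrial share 15 were higher, against 965 of all 17810 genes in that setting. The list was led by Trim30a (4.38 ± 0.65) and the chemokine Ccl5 (4.21 ± 1.18). From 2 to 6 h, 7 were higher and 17 lower (median -0.53, or -0.38 at the bound, against -0.02, with 49.6% of all genes called), with Gbp3 at -3.15 ± 0.70. With the length trend removed, 3 were higher and 13 lower, against 4345 and 3186 of all 18039 genes. Irf3 was 17.7 ± 4.02 CPM at 2 h, 94.9 ± 38.5 CPM at 6 h and 28.9 ± 0.403 CPM at 12 h, a rise of 2.42 ± 0.47 followed by a fall of 1.72 on the log2 scale (SE 0.53). The length offset left these at 2.38 and -1.68, both called. Irf9 rose from 2 to 6 h (0.72 ± 0.21) and did not pass the test from 6 to 12 h, where its log2 difference was -0.08 ± 0.24.

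For each of the 9 genes, the protein-coding gene with the most similar pattern was taken as that of highest Pearson r of log2 CPM over the 19 libraries, among 9887 genes whose mean was 5 CPM or more. These were Casp4 for Ifit1 (r = 0.90), Ass1 for Ifit3 (0.95), Fibin for Isg15 (0.95), Kifc1 for Irf1 (0.86), Lrrc49 for Irf7 (0.88), Cbx7 for Stat2 (0.93), Aga for Bst2 (0.92), Strbp for Oasl2 (0.94) and Zfp874b for Rsad2 (0.92). The points share groups, depth and the length trend, and r describes likeness only.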

How the data were processed

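RNA-seq libraries of 19 C2C12 samples were used as the counts per gene that the authors deposited, 1 table per library. Per the submitters' processing notes, reads went through Trim Galore, STAR 2.5.3a, the mouse build mm10, bedtools 2.31.0 and DESeq2. How reads were counted per gene, with which strand setting and annotation, is not stated there, so reads of overlapping antisense genes cannot be told apart. The 5 closing lines of each table, reads given to no gene (13.7% to 28.7% of reads), were left out. Of 55401 Ensembl identifiers, 55141 matched GENCODE M21 symbols. Total gene reads were 17305962 to 40964140 per library. Replicates differed by more than sampling noise (chi-square per degree of freedom of at least 2.24).

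All 19 libraries entered 1 fit of group means in edgeR 4.0.16 (R 4.3.3) with TMM scaling and filterByExpr, which kept 18039 genes. Tests were two-sided quasi-likelihood tests with Benjamini-Hochberg adjustment over all genes, called at an adjusted p of 0.05. The common biological coefficient of variation was 0.352. Levels are CPM on TMM-scaled library sizes, with SD, and log2 differences carry the SE of the fit. Overlap of groups is described for the named genes, and its share over all genes was not computed in any comparison. The scripts were tested on simulated data. Members and gene lists were chosen with earlier results of these data known. Besides the 9 genes, the text names Ifnb1, Ifnar1, Ifnar2, Irf9 and Irf3 always (1 further gene of that rule is not reported here), and from the 2 called genes of each list with the largest log2 difference per comparison. The most similar gene is that with the highest Pearson r of log2(CPM + 0.5). Alternatives were DESeq2 1.42.0 and its size factors, scaling to total reads, no filter, fits on the compared groups alone, a replicate block, an offset for transcript length, and leaving out each library or the 2 of high mitochondrial share. Scaling to total reads moved the median log2 difference of all genes to 0.17 and 0.14 for thapsigargin at 2 and 6 h, -0.13 for recovery against thapsigargin, and -0.11, 0.29 and 0.25 for DMSO at 6 against 2 h, 12 against 6 h and 12 against 2 h. List counts without the 2 libraries and with the length offset were added after seeing the data. Replicates carry the numbers of their sample titles; the count tables of thapsigargin at 12 h are numbered 2 and 3 for titles 1 and 2, which bears on the block. Same-numbered libraries were not paired: correlations of their deviations ran from -0.83 to 0.86.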

Additional observations from a re-analysis of the deposited data

Results flagged for a closer look

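The response to thapsigargin differed between 2 and 6 h by the test of the difference itself (edgeR quasi-likelihood test of an interaction, adjusted p under the threshold) for 3 of the 9 genes, against 3.99% of all genes. The log2 response at 6 h minus that at 2 h was 3.36 for Ifit1, -2.16 for Irf1 and 1.65 for Oasl2. Ifit1 was higher with the drug at 6 h (log2 3.69) and had overlapping groups at 2 h (0.33). Irf1 was higher at 2 h (1.31) and lower at 6 h (-0.86). Oasl2 was higher at 6 h (1.14) and overlapped at 2 h (-0.51). The vehicle itself fell between these times, with log2 differences of -2.16 for Ifit1 and -1.36 for Oasl2. The calls of Ifit1 and Oasl2 were each lost when any of 10 of the 12 libraries was left out. Irf1 alone passed with the replicate block (504 of all 18039 genes called) and Ifit1 alone with scaling to total reads (321 of 18039).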

How the results depend on the processing

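Over 90 log2 differences of the 9 genes, 31 called, no called value changed sign under any alternative run. Of the others, 76 changes of sign were seen. Each value is given here with its comparison, and the causes of these changes were not tested.

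Scaling to total reads gave 0.13 (Ifit3) and 0.18 (Stat2) for the drug at 2 h, -0.27 (Irf7) for recovery against thapsigargin and -0.00992 (Isg15) for the response at 12 h minus 6 h. It called 0 genes for the drug at 2 h and 1 for the response at 6 h minus 2 h. Over all 18039 genes it called 518 and 321 in these comparisons. Without the 2 libraries of high mitochondrial share the drug at 2 h gave 0.11 (Ifit3), -0.14 (Isg15), 0.040 (Stat2) and -0.26 (Bst2). That setting also gave -0.60 (Irf7, recovery against thapsigargin), 0.16 (Irf1, recovery against DMSO), 0.051 (Irf7, DMSO 6 h against 2 h), -0.071 (Rsad2, DMSO 12 h against 2 h) and 0.20 (Rsad2, response at 6 h minus 2 h). It called 2 genes in recovery against DMSO (377 of all 17810 tested) and 5 for the response at 6 h minus 2 h (1975 of 17810). No filter gave -0.029 (Stat2, drug at 12 h) and called 3 genes for the drug at 6 h, 2 in recovery against thapsigargin and 1 in recovery against DMSO. Over all 34137 genes then tested, 3406, 4364 and 65 were called in these comparisons. The length offset gave 0.031 (Bst2, recovery against thapsigargin), -0.33 (Ifit3), -0.50 (Isg15) and 0.26 (Stat2) for DMSO at 6 h against 2 h, -0.0044 (Irf1, DMSO 12 h against 6 h), and -0.15 (Isg15) and 0.0047 (Oasl2) for the response at 12 h minus 6 h. It called 2 genes for the drug at 12 h, 1 in recovery against DMSO, 3 for DMSO at 6 h against 2 h and 5 for the response at 6 h minus 2 h. Over all 18039 genes it called 2641, 81, 7531 and 898 in these comparisons. DESeq2 gave 0.029 (Irf1, recovery against DMSO, and 0.027 with its size factors in edgeR) and 0.017 (Rsad2, response at 6 h minus 2 h). It called 3 genes for the drug at 12 h, 3 in recovery against DMSO and 5 for the response at 6 h minus 2 h. Over all genes it called 2961 of 18061, 399 of 15500 and 1513 of 18061. Fits on the compared groups alone gave 0.0078 (Irf1, recovery against DMSO) and 0.0037 (Rsad2, response at 6 h minus 2 h). They called 8 genes for the drug at 12 h, 0 in recovery against thapsigargin and 3 for DMSO at 12 h against 2 h. Over all genes they called 8847 of 14230, 1403 of 15273 and 1529 of 15127.

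The replicate block gave -0.013 (Bst2, drug at 2 h), 0.026 (Irf1, recovery against DMSO) and -0.011 (Irf1, DMSO 12 h against 6 h). It called 1 gene for the response at 6 h minus 2 h, against 3 without it, and 504 of all 18039 genes, against 719. It ended 7 calls in all and added 0, among them Isg15 in recovery against thapsigargin (-1.14, adjusted p = 0.063) and Ifit1 (2.10, 0.095) and Stat2 (0.65, 0.112) for DMSO at 12 h against 2 h.

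Without each library in turn, the number of genes called was 0 to 1 for the drug at 2 h (1 in full), 0 to 1 at 12 h (1), 1 to 4 in recovery against thapsigargin (4), 0 to 1 against DMSO (0), 3 to 5 for DMSO 12 h against 6 h (5), 1 to 4 for 12 h against 2 h (6) and 1 to 3 for the response at 6 h minus 2 h (3). Uncalled values that changed sign then ranged as follows. For the drug at 2 h the ranges were -0.32 to 0.36 (Bst2), -0.30 to 0.045 (Ifit3) and -0.21 to 0.77 (Isg15), at 6 h -0.42 to 0.061 (Bst2) and -0.057 to 0.66 (Rsad2), and at 12 h -0.021 to 0.054 (Stat2). Recovery against thapsigargin gave -0.39 to 0.088 (Bst2), -0.60 to 0.49 (Irf7), -0.018 to 0.30 (Oasl2) and -0.61 to 0.34 (Rsad2), and against DMSO -0.12 to 0.18 (Irf1) and -0.17 to 0.62 (Rsad2). DMSO at 6 h against 2 h gave -0.047 to 0.66 (Ifit3) and -0.34 to 0.11 (Irf7), 12 h against 6 h -0.0072 to 0.38 (Bst2) and -0.035 to 0.17 (Irf1), and 12 h against 2 h -0.057 to 0.48 (Rsad2). The response at 6 h minus 2 h gave -0.59 to 0.092 (Bst2) and -0.50 to 0.29 (Rsad2), and that at 12 h minus 6 h -0.23 to 0.14 (Irf1), -0.093 to 0.36 (Isg15) and -0.23 to 0.050 (Oasl2).

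Low counts limit several genes: Ifit1 in DMSO at 6 h rests on 2, 12 and 13 reads, and Rsad2 was at most 2.40 CPM in any library. Only 2 libraries per group at 12 h, the lack of a vehicle of the age of the recovery group and the large difference between vehicle times limit those comparisons.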
